A study of Mus musculus with 25 samples.

Results

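The comparison set CD8+ T cells that carry a CRISPR deletion at the Il2ra super-enhancer, labelled Intron, against wild-type (WT) CD8+ T cells. It uses 4 of the 25 samples of the series, chosen by their labels: 1 H3K27ac HiChIP library per genotype and treatment. All 4 libraries came from spleen of strain C57BL/6J and from cells that were activated with anti-CD3 and anti-CD28 for 2 days and rested for 4 h. The control libraries were then left untreated (Cont) and the others received IL-2. The genotype field of the deletion libraries reads only mutants, and the word Intron comes from their titles. The sources used here do not give the animals or pools behind a library, the age of the mice, the coordinates, allele state or number of lines of the deletion, or which IL-2 dose and time applied. The features compared were the 32179 pairs of 1 kb bins (loops) that were listed in all 4 libraries, of 117390 listed in any, and the 20235 bins with at least 1 listed loop in each of the 4, of 44092 in any.

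Il2ra encodes CD25, the alpha chain of the IL-2 receptor, which raises the affinity of the receptor for IL-2. T cells switch the gene on after antigen receptor stimulation, and IL-2 acts on it in turn through the transcription factor STAT5, which binds several enhancers upstream of the gene and in its introns. H3K27ac is a histone mark of active promoters and enhancers. HiChIP joins DNA ends that are close in the nucleus, enriches them with an antibody, which here recognised H3K27ac, and counts the read pairs that connect bins. The question set by the design is which contacts of the Il2ra promoter, and which contacts elsewhere, differ between WT and mutant cells.

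The 4 libraries differed in depth. They listed 38879 loops with 1314137 contacts in the Intron control library and between 72698 and 94922 loops with 2619773 to 3596995 contacts in the other 3. No listed loop held fewer than 20 contacts or spanned under 5 kb. A loop was tested only where each library listed it, so a loop that fell under 20 contacts in the shallow library was not tested. Of the 62229 loops listed in both WT libraries, 51.7% were also listed in both Intron libraries. That share was 26.3% where the lower WT count was 20 to 29 and 99.1% where it was 100 or more. Among the tested loops, the fifth with the lowest mean counts had a median log2 difference of 0.13, against -0.08 to 0.00 in the other four. Counts below are scaled, which means divided by a factor for each library's size (0.760 to 1.17 for loops, 0.711 to 1.21 for bins and 0.744 to 1.20 for gene ends), and every log2 value is Intron over WT with treatment as a term.

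Each genotype and treatment had 1 library. The edgeR quasi-likelihood test thus took its error from how the IL-2 change differed between genotypes, with 1 residual degree of freedom per feature and spread shared over features, and its p-values measure no spread between like libraries. Every fit named below as leaving out a library also had no treatment term, and took its error from the IL-2 change of the genotype that kept both libraries. In these bulk libraries, fewer cells of a type and less signal per cell cannot be told apart. The CD8 identity of the cells was checked on marker genes: all 6 of 6 CD8 T cell markers had loops at their ends in every library. Of the markers of other cells, 1 of 6 for CD4 or regulatory T cells (Ikzf2), 1 of 7 for B cells (Cd79a), 3 of 8 for myeloid cells, 0 of 6 for NK cells and 0 of 4 for erythroid cells had such loops, and the contacts of none of those 5 passed the test. Coverage of their end bins was called in part. It was higher for the B cell marker Cd79a (1291, 1124, 1968 and 2005 reads in WT control, WT IL-2, Intron control and Intron IL-2, log2 0.72), in a bin that holds none of its RefSeq starts. It was also higher for the myeloid marker Tyrobp (0.40). Spi1 shared its feature with Slc39a13, and 1 of the 2 bins of that feature was higher (0.08 over both). Coverage was lower in 1 of 2 bins of Cd68 (-0.36 over both) and not called for Ikzf2 (0.18). The part of other cells in the coverage results below was not tested.

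The start regions of 4 genes on which the results turn are shown first, because coverage of the bins that hold the starts was called higher or lower. Each runs from 250 bases before to 50 bases after the start of transcription, 5′ to 3′ on the gene's strand, from RefSeq on GRCm38.p6. Il2ra lies at chr2:11642542-11642841 (plus strand), Prkcq at chr2:11172132-11172431 (plus), Apobec3 at chr15:79892158-79892457 (plus, the first of its listed starts) and Fam240a at chr9:110916849-110917148 (minus).
Il2ra: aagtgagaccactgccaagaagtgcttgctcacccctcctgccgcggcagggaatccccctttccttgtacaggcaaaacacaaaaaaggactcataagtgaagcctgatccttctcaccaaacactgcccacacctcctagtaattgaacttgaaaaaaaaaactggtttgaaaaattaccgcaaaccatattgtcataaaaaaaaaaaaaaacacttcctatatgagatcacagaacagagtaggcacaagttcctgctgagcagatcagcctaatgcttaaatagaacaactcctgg
Prkcq: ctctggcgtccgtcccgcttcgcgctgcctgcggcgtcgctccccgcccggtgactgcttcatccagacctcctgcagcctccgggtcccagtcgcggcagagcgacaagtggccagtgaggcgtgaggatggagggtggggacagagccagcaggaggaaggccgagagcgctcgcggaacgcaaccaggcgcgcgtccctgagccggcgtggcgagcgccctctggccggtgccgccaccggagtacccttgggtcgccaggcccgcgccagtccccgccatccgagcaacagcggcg
Apobec3: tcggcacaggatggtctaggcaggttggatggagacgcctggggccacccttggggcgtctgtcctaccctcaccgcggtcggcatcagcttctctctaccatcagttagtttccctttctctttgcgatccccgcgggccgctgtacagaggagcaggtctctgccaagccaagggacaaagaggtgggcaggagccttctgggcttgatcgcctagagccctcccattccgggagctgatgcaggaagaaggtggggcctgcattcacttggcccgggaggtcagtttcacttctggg
Fam240a: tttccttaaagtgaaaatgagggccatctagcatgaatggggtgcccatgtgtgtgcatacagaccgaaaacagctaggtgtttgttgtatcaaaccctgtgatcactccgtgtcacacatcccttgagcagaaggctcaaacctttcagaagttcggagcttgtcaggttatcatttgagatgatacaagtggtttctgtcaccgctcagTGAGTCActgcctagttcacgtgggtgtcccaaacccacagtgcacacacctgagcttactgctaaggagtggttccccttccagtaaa
Capitals mark TTCNNNGAA, the core bound by STAT proteins, or TGANTCA, the core bound by AP-1, both of which read the same on either strand. Only TGANTCA in Fam240a was found, once, from 39 bases before the start, whereas 7.81% of the 32851 start regions of this length hold it and 8.30% hold TTCNNNGAA. The Il2ra window lies in the bin chr2:11642001-11643000, whose scaled coverage was 3752 and 4991 reads in the WT control and IL-2 libraries and 1913 and 2122 in the Intron libraries. The bins that hold the other starts are described with their genes below.

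At the targeted gene, contacts of the Il2ra start were lower in the Intron libraries. Il2ra (chr2:11642792-11693194, gene ID 16184) had 2 loops listed in all 4 libraries at its ends, both from the start bin. Together they held 158 contacts in WT control, 238 in WT with IL-2, 64 in Intron control and 91 in Intron with IL-2. After scaling these were 154, 199, 86.0 and 88.0. Both Intron libraries thus lay below both WT libraries, and the difference was -1.04 on the log2 scale (SE 0.146, edgeR adjusted p = 1.21e-06), or 0.488 of the WT level. The IL-2 library was above its control library in WT and close to it in the deletion, and this gap has no replicate.

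The loops joined the start to intergenic bins upstream, between Il2ra and the neighbouring gene Rbm17. The loop to the bin 5 kb upstream had 99, 127, 52.6 and 57.4 scaled contacts in WT control, WT IL-2, Intron control and Intron IL-2, a log2 difference of -1.05 (SE 0.191). The loop to the bin 23 kb upstream had 57.4, 77.1, 31.6 and 28.2 (-1.20, SE 0.250). Over the stretch from Rbm17 to the third bin of Il2ra, 11 loops were shared and all 11 were lower in value, 10 of them past the threshold, with a median of -1.05. Across all loops tested, 4.27% were called lower. The largest of these falls, -1.49 (SE 0.193, edgeR adjusted p = 1.22e-11), joined the bin 5 kb upstream to the bin 2 kb inside the gene and had 108, 152, 35.5 and 56.5 scaled contacts. The loop from Rbm17 to the bin 26 kb upstream of Il2ra, at -0.33 (SE 0.257), did not pass. DESeq2 called 1 of these 11 loops, and the fits without the Intron control or the Intron IL-2 library called 5 and 4, as the fit without WT IL-2 called 5.

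H3K27ac coverage of the same bins was lower too. All 12 shared bins from Rbm17 to the third bin of Il2ra were called lower, with a median of -0.99 and a range of -1.62 to -0.57, against 19% of all bins tested. Summed over the 12 bins, scaled coverage was 29769 reads in WT control, 41258 in WT IL-2, 16158 in Intron control and 17366 in Intron IL-2. The bin 2 kb inside the gene had the largest fall (5714, 7812, 2066 and 2309 reads, -1.62, SE 0.0872). Upstream of the start the values ran from -1.12 at 23 kb to -0.57 (SE 0.0872) at Rbm17, 40 kb away, in no steady order with distance. In each of the 12 bins both Intron libraries lay below both WT libraries. At the far end of the gene, the bin 49 kb inside had 671, 522, 557 and 506 reads and did not pass (-0.16, SE 0.0997). The fits without the Intron control or the Intron IL-2 library called 2 and 1 of the 12 bins, all 12 still below 0.

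**Figure D1:**
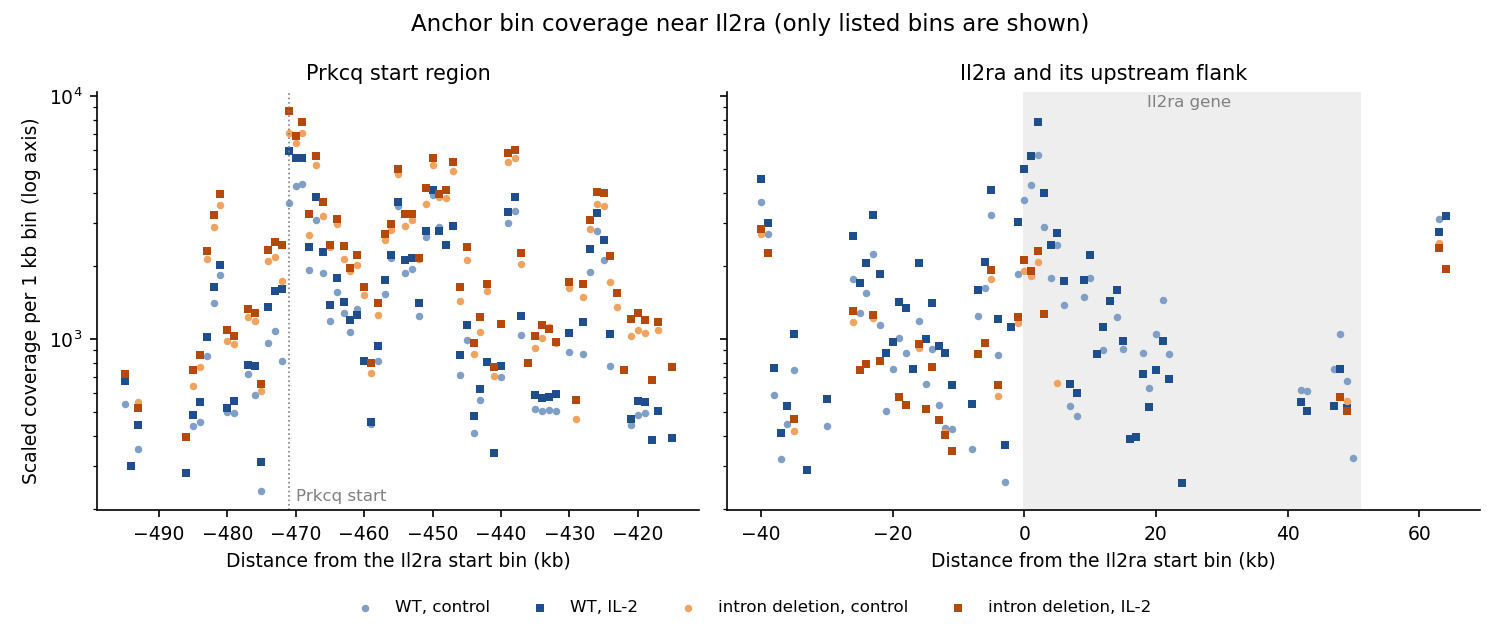
Scaled coverage of each listed 1 kb bin (log axis) against distance from the Il2ra start bin in kb, for the 4 libraries, in the Prkcq start region (left) and at Il2ra (right, gene shaded). The 12 shared bins from 40 kb before to 2 kb after the Il2ra start are lower in both Intron libraries, and the bins around the Prkcq start are higher in both.

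Inside the gene most contacts of WT cells were missing from the Intron tables. Of the 49 bins of Il2ra after its first 3, the WT libraries listed 23 and 26 and the Intron libraries 2 and 3. Pairs counted for this part of the gene numbered 101 and 176 in WT control and IL-2 and 1 in each Intron library. That count leaves out the pair from this part to Il15ra described below, which every library listed. Of the 16 such pairs with at least 40 contacts in both WT libraries, 0 were listed in both Intron libraries and 14 in neither. Of all 16773 loops of that strength, 91.8% were listed in both Intron libraries and 1.59% in neither. Bins that the deletion removed and bins that lost the mark cannot be told apart here, since the deletion's coordinates are not known here. Listed pairs that left the start bin numbered 4 in Intron control, to bins 5, 23 and 40 kb upstream and 5 kb inside the gene, against 32 in WT control. Their summed listed contacts, per scaled library, were 0.126 of WT in control (exact 95% interval 0.102 to 0.154) and 0.165 with IL-2 (0.146 to 0.187). The intervals cover counting error only and not the listing limit. With every unlisted pair set to 19 contacts, the ratios were 0.765 and 0.483. A count of 19 is the most an unlisted pair could hold if 20 contacts were the only rule for listing. All listed loops also had both anchors marked as peaks, and the loop caller's other rules are not known. These ratios are thus no sure upper limit. Restricted to pairs that both libraries listed, the ratios were 0.541 and 0.448, and coverage of the start bin gave 0.510 and 0.425.

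Of 11 protein-coding genes within 1 Mb of Il2ra, 3 had shared loops at their ends: Il2ra, Il15ra and Prkcq. Il15ra, which encodes the alpha chain of the IL-15 receptor and lies just beyond Il2ra, had 1 shared loop, to a bin 49 kb inside Il2ra, with 20, 20, 21 and 20 unscaled contacts. Its scaled contacts of 19.5, 16.7, 28.2 and 19.3 overlapped between the genotypes and did not pass (0.37, SE 0.263, edgeR adjusted p = 0.515). Coverage of its end bin was called lower at 3120, 2750, 2476 and 2362 reads (-0.28, SE 0.0853). The loop's contacts sat at the listing limit in each library, so its scaled values follow the scale factors.

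Prkcq differed in the other direction. Prkcq (chr2:11171905-11301226) encodes protein kinase C theta, which carries signals from the T cell receptor to NF-kB and AP-1, and its start lies 471 kb before that of Il2ra. Contacts at its ends, over 29 loops, were 1002 and 1503 in the WT control and IL-2 libraries and 1950 and 2465 in the Intron libraries after scaling. The lowest Intron library exceeded the highest WT library, and the difference was 0.83 (SE 0.0832, edgeR adjusted p = 3.44e-10), or 1.78 times WT. All 60 shared bins from 25 kb before the gene to its end were called higher, against 22.6% of all bins, from 0.33 to 1.30. The bin with the start region shown above had 4245, 5544, 6411 and 6881 reads (0.45, SE 0.0798). The bin 50 kb after the first bin of the gene had the largest rise, 441, 470, 1034 and 1214 reads (1.30, SE 0.0989).

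Loops within this stretch moved as its bins did. Of 272 shared loops, 117 were called higher and 0 lower, with a median of 0.62 and 271 above 0, where 5.24% of all loops were called higher. The largest rise joined a bin 11 kb before the gene to its first bin and had 21.8, 43.7, 80.2 and 104 scaled contacts (1.48, SE 0.219, edgeR adjusted p = 7.85e-09). The stretch was listed more fully in the deletion despite the lower depth of its control library, with 415 and 751 listed pairs in the Intron libraries against 319 and 482 in WT. DESeq2 called 0 of the 272 loops and 59 of the 60 bins. Without the Intron control or the Intron IL-2 library 38 and 7 loops, and 12 and 1 bins, were called higher, and without WT control 65 loops were. Pfkfb3, a regulator of glycolysis that lies between Prkcq and Il2ra, had 3 of 8 shared bins called higher and none lower (median 0.20). A single listed pair joined the Prkcq start to Il2ra, with 21 contacts in WT IL-2 only, and was unlisted in the other 3 libraries.

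Over all gene ends, 326 of 2723 features (12.0%) passed the threshold, 178 higher (6.54%) and 148 lower (5.44%) in the Intron libraries. A feature is a gene, or genes sharing their bins, with the summed contacts of all shared loops anchored in a bin that holds either annotated end. All 326 had the same sign in the control and IL-2 libraries, as had 65.6% of all features. The test takes its error from the disagreement between treatments, which favours calls with the same sign. Coverage of the same end bins had the sign of the contacts for 316 of the 326 and for 1952 of all 2723. Of the 326, 246 had a loop at a bin holding a RefSeq start and 56 rested on 1 loop. The count depended on the tool: DESeq2 called 28, all of them among the 326 and 67.9% of them higher. With only the treatment term dropped 218 passed. With a library left out as well, 83 passed without Intron control and 48 without Intron IL-2, where the error was the WT IL-2 change, and 498 without WT control and 237 without WT IL-2, where it was that of the deletion. Cyclic loess scaling left 98, of which 67.3% were higher, against 54.6% of the 326.

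**Figure D2:**
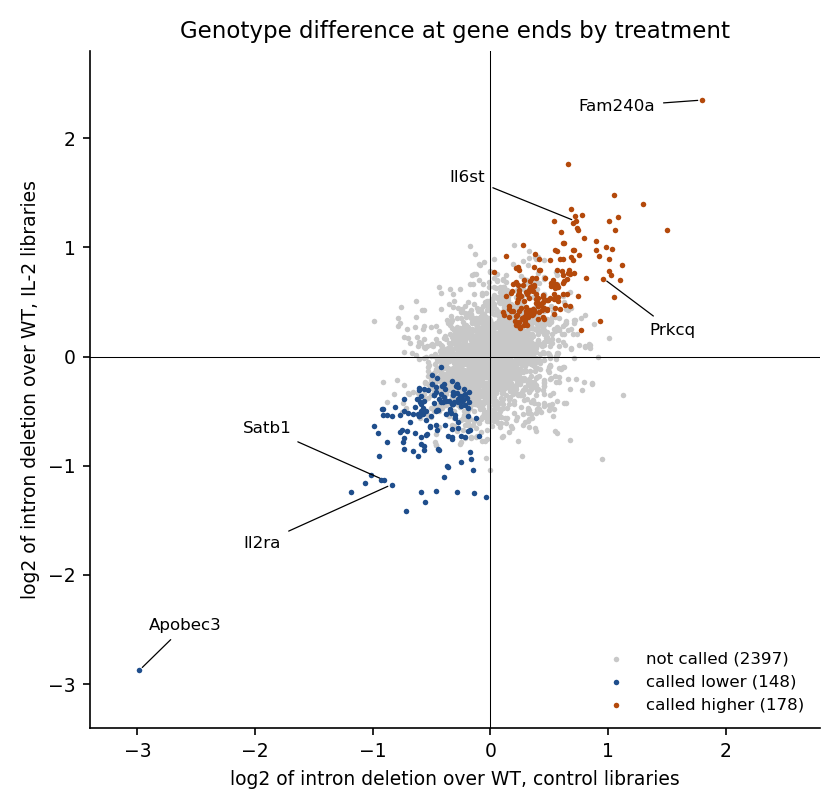
Each point is a gene-end feature, with its log2 of Intron over WT contacts in the control libraries on the x axis and in the IL-2 libraries on the y axis. The 178 features called higher and the 148 called lower lie in the quadrants where both treatments have the same sign. The test favours such features, since its error is the disagreement between treatments.

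Apobec3, a cytidine deaminase that restricts retroviruses, had the largest fall at gene ends. Its single shared loop, between its first bin and a bin 8 kb into the gene, had 254 and 292 contacts in WT and 23 and 34 in the Intron libraries. Scaled values were 248, 244, 30.9 and 32.9, a difference of -2.94 (SE 0.170, edgeR adjusted p = 4.59e-18). The bin with the start shown above had 11804, 11648, 3138 and 2943 reads (-1.95, SE 0.0613), and the other anchor, inside the gene, had 5534, 4505, 281 and 276 (-4.16, SE 0.111), the largest fall of any bin. Of the 12 loops with at least 100 contacts in both WT libraries that neither Intron table listed, 10 lay at Apobec3, and the others lay at Lad1 and Camk2b.

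Among the other 9 of the 10 largest falls at gene ends, Il12rb2, a chain of the IL-12 receptor, had 48.8, 62.7, 29.6 and 23.2 scaled contacts (-1.13, SE 0.219). Dusp4, a phosphatase that turns off MAP kinases, had 136, 166, 64.5 and 74.4 (-1.12, SE 0.152, edgeR adjusted p = 5.67e-07). Satb1, which organises chromatin in T cells, had 142, 161, 75.2 and 73.5 (-1.04, SE 0.151). In each of these genes, chosen for their large falls, both Intron libraries lay below both WT libraries. Batf3 and Fosl1, both AP-1 family transcription factors, were at -1.06 (SE 0.203) and -1.02 (SE 0.196), and the value of Fosl1 was -0.59 in control and -1.24 with IL-2. Tnfaip8, a regulator of cell death induced by TNF, was at -1.23 (SE 0.197), Pkp3, a desmosome protein, at -1.06 (SE 0.215) and the shared end of Ajuba and Haus4 at -0.97 (SE 0.218), with Il2ra the remaining member. End-bin coverage was called lower for each of the 10 except Fosl1, at -0.18. DESeq2 called Apobec3, Dusp4 and Il2ra among them.

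The largest rise at gene ends was at Fam240a. Its 3 loops had 111 and 82.7 scaled contacts in WT and 388 and 423 in the Intron libraries (2.08, SE 0.135, edgeR adjusted p = 1.77e-16), and the bin with its start had 621, 528, 2097 and 2154 reads (1.89, SE 0.110). Ccdc69 had 57.6, 56.0, 142 and 148 scaled contacts (1.36, SE 0.157) and Kbtbd11 had 43.9, 55.2, 125 and 124 (1.31, SE 0.166). Kif11, a kinesin of the mitotic spindle, had 34.2, 30.9, 71.2 and 87.0 (1.30, SE 0.191). For all 4, chosen for their large rises, the Intron libraries stood clear of the WT libraries. Nup214, a nuclear pore protein, was at 1.19 (SE 0.216), Ppp1r9b, the scaffold spinophilin, at 1.12 (SE 0.171) and Cracr2a, a regulator of calcium entry in T cells, at 1.06 (SE 0.162). Gm33887, Ccdc124 and Tmem9b completed the 10, at 1.28, 1.15 and 1.07. Each of these rested on 1 loop, as did Kif11 and Nup214. Their unscaled WT counts were 26 and 20 for Gm33887, 25 and 27 for Ccdc124, 22 and 20 for Tmem9b and 29 and 23 for Nup214. These lie at or close to the listing limit of 20 contacts. Neither the Gm33887 loop nor the Nup214 loop touched a bin holding a RefSeq start of its gene. DESeq2 called neither Gm33887, Ccdc124 nor Tmem9b, and with cyclic loess scaling Gm33887 and Tmem9b did not pass. Of the 39 genes named here that passed, 8 passed in every alternative in which they were fitted: Apobec3, Dusp4, Il2ra, Fam240a, Ccdc69, Kbtbd11, Prkcq and Il6st.

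**Figure D3:**
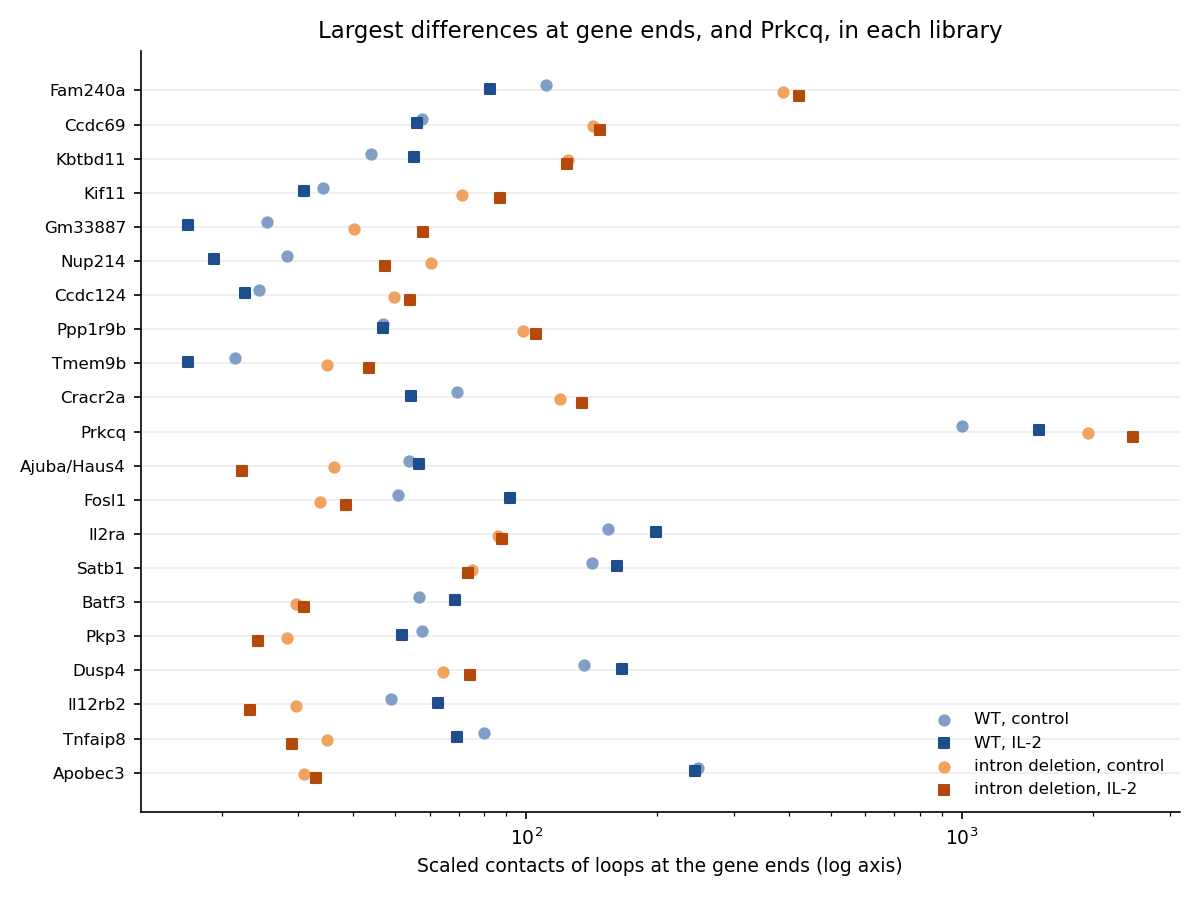
Scaled contacts at the gene ends (log axis) in each of the 4 libraries for the 10 largest rises, Prkcq and the 10 largest falls. WT and Intron libraries do not overlap for any of these 21 features, and Prkcq has the most contacts. The 10 rises and 10 falls were chosen as the largest called differences with the same sign, so their separation is a description.

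Genes known to respond to IL-2 through STAT5 were more often lower than higher. Of 28 listed, 20 were measured, 6 were called lower and 2 higher, and the median was -0.19. Over all gene ends the median was 0.00, with 5.44% called lower and 6.54% higher. The list was chosen with earlier results of these data known. Irf4, a transcription factor of T cell activation, had 103, 110, 63.1 and 68.6 scaled contacts (-0.70, SE 0.162, edgeR adjusted p = 0.00235). Osm, which encodes the cytokine oncostatin M, had 464, 632, 390 and 382 (-0.51, SE 0.107). Both genes were lower in both Intron libraries than in either WT library. Cish, an inhibitor of cytokine signalling, had 4320, 5920, 3769 and 4538 contacts over 53 loops (-0.29, SE 0.0764), where the Intron IL-2 library exceeded WT control. Pim1, a survival kinase, was at -0.31 (SE 0.0846), Il2rb, the receptor's beta chain, at -0.32 (SE 0.0826) and Lta, lymphotoxin alpha, at -0.26 (SE 0.0835). The 2 higher members were Mcl1, a survival protein of the Bcl2 family, at 0.43 (SE 0.117), and Bcl6, a repressor that opposes effector programmes, at 0.40 (SE 0.129). Among the others, Ccnd3 was at 0.30, Pim2 at 0.20, Gzmb at -0.27 and Tnfrsf18 at -0.19, none past the threshold. DESeq2, and the fits without either Intron library, called none of the 20. Without WT IL-2 the calls were 1 lower and 3 higher with a median of -0.04, and without WT control 9 lower and 1 higher with a median of -0.31.

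Receptor chains, Jaks and Stats split. Of 25 listed genes 16 were measured in 15 features, with 3 called lower, 2 higher and a median of 0.03. Over all gene ends 5.44% were called lower and 6.54% higher. Il12rb2, Il2ra and Il2rb, described above, were the lower members. Il6st, the gp130 chain shared by the receptors of IL-6 and oncostatin M, had 549, 351, 907 and 829 scaled contacts over 16 loops (0.98, SE 0.101, edgeR adjusted p = 7.19e-10). Coverage of the bin with its start was 3781, 2819, 5771 and 5280 reads (0.76, SE 0.0861), and both measures separated the genotypes without overlap. Jak1, the kinase shared by many cytokine receptors, had 251, 277, 334 and 368 (0.41, SE 0.112). Il2rg, the common gamma chain, was at 0.29 (SE 0.107, edgeR adjusted p = 0.0626), Ifngr1 at 0.35 and Stat3 at -0.18, none past the threshold. The 3 IL-2 receptor chains thus had values of -1.04, -0.32 and 0.29, of which the first and second passed. DESeq2 called 1 member higher, Il6st, and 1 lower, Il2ra. Without Intron control 1 was higher and 2 lower, without Intron IL-2 1 and 1, and without WT control 4 and 4, with the median at -0.07 in the last and 0.14 without WT IL-2.

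AP-1, Batf and Irf factors, which act with antigen receptor signals, included 4 called lower and 1 higher of 9 measured, against 5.44% and 6.54% of all gene ends, with a median of -0.26. The lower ones were Batf3, Fosl1, Irf4 and Fosl2, the last with 291, 384, 240 and 252 scaled contacts (-0.46, SE 0.117). Jun was higher, with 41.0, 56.0, 65.8 and 77.3 (0.55, SE 0.178, edgeR adjusted p = 0.0343). Jund at -0.26, Irf8 at -0.22, Batf at -0.17 and Junb at -0.08 did not pass. Without Intron control 2 of the 9 were called lower, and without Intron IL-2 1, none higher in either fit, while DESeq2 called none. Without WT IL-2 the calls were 2 lower and 1 higher. The median was -0.42 without Intron control. Irf4 belongs to both this list and the IL-2 list.

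Genes of cytotoxic function had 6 of 20 measured, all below 0, with a median of -0.26 and 2 called lower, where 5.44% of all gene ends were. These were Lta, also on the IL-2 list, and Nkg7, a protein of cytotoxic granules, which had 447, 391, 324 and 322 scaled contacts (-0.37, SE 0.107, edgeR adjusted p = 0.0171). Tbx21, the transcription factor T-bet, was at -0.31, Gzmb, granzyme B, at -0.27, Tnf at -0.18 and Runx3 at -0.10, none past the threshold. Genes of naive and memory cells had 8 of 14 measured and a median of 0.30, which was 0.16 both without WT IL-2 and without Intron control. Ccr7, the receptor that guides T cells into lymph nodes, was called higher with 578, 511, 750 and 802 (0.52, SE 0.0946), and Satb1 was called lower. Lef1 at 0.39, Foxo1 at 0.37 and S1pr1 at 0.35 did not pass. In the cytotoxic list 4 of 6 were called lower without WT control, 1 without WT IL-2 and none without either Intron library, and DESeq2 called none in either list.

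T cell identity genes were close to the middle, with 17 of 22 measured and a median of 0.10. Their 1 higher and 1 lower call are 5.88% each, near the 6.54% and 5.44% of all gene ends. Cd8b1, the CD8 beta chain, was called higher with 1373, 1356, 1678 and 1745 scaled contacts (0.33, SE 0.0815), and Zap70, a kinase of the T cell receptor, was called lower with 225, 175, 167 and 133 (-0.41, SE 0.130). Cd8a at 0.45, Skap1 at 0.32, Thy1 at -0.29 and Lat at 0.17 did not pass. Of 13 measured interferon and antigen presentation genes, Irgm1, an interferon-induced GTPase, was called higher at 0.40 (SE 0.0848) and none lower, and the median was -0.01. That is 7.69% of the list, near the share of all gene ends. By edgeR no measured gene passed among 8 of activation and checkpoint, 5 of growth and metabolism and 14 of the cell cycle, with medians of 0.05, -0.15 and 0.01, and DESeq2 called none. At an unadjusted p of 0.05, 1, 0 and 2 of them would pass. Without WT control 2 growth genes were called lower and 4 cell cycle genes higher and 1 lower, without WT IL-2 1 cell cycle gene each way, and with all 6 libraries 2 cell cycle genes higher. Of 6 measured housekeeping genes, 1 was called lower and none higher, with a median of -0.01, and Actb was at 0.10 and Ppia at 0.09, neither past the threshold.

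**Figure D4:**
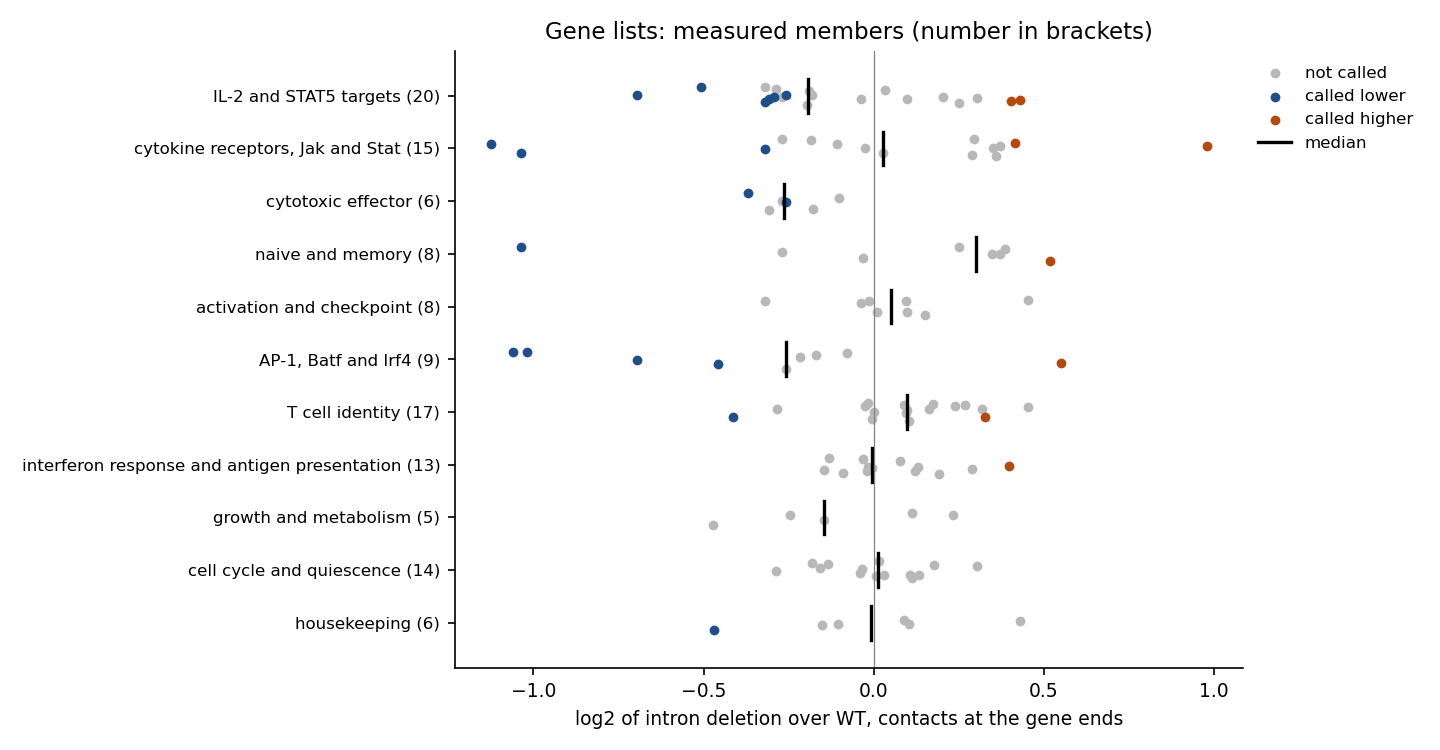
Each point is a measured member of a gene list, placed by its log2 of Intron over WT contacts at the gene ends and coloured by its call, with the list's median as a black bar. Medians run from -0.26 for the cytotoxic and AP-1 lists to 0.30 for the naive and memory list.

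Of the 20235 shared bins 8423 (41.6%) were called, 4580 higher (22.6%) and 3843 lower (19%). All 8423 had the same sign under both treatments, as had 81.5% of all bins. The test favours such bins, since its error is the disagreement between treatments. DESeq2 called 4989, and the fits without Intron control and without Intron IL-2 called 424 and 234. Bins at gene ends were called higher in 11.6% and lower in 18.2% of 3077, bins elsewhere in genes in 24.0% and 18.3% of 10840, and bins outside protein-coding genes in 25.7% and 20.7% of 6318. The median size of the log2 difference in coverage was 0.15 at gene ends and 0.26 outside genes, and mean coverage was 2982 and 1414 reads.

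Among the 5 largest falls after Apobec3 were bins outside genes 20 and 21 kb from Ly6e, a surface protein that limits viral entry. Their coverage was 5745, 5613, 1353 and 1287 reads (-2.11, SE 0.0782) at chr15:74934001-74935000 and 4627, 4448, 962 and 990 (-2.22, SE 0.0883) in the bin before it. The loop from the bin 21 kb away to a bin in Ly6e fell with them, from 123 and 105 scaled contacts in WT to 31.6 and 23.5 (-2.05, SE 0.223). The loop from the bin 20 kb away to a bin 0.025 kb from Ly6e was at -1.76 (SE 0.222). A bin in Cdk17, a cyclin-dependent kinase, was at -2.11 (SE 0.102) and one in Smg1, a kinase of RNA surveillance, at -2.19 (SE 0.109). A loop at Cdkn1a, the cell cycle inhibitor p21, was among the 5 largest loop falls at -1.76 (SE 0.218), with 108, 106, 36.8 and 27.3 scaled contacts.

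The largest rises of bins were at chr19:59350001-59351000, 4.22 kb from Pdzd8, with 95.7, 101, 1160 and 1221 reads (3.60, SE 0.109), and at 3 neighbouring bins in Kat2b, an acetyltransferase. The middle bin of Kat2b, chr17:53582001-53583000, had 464, 394, 2370 and 2347 reads (2.46, SE 0.109). The fifth bin, at 2.08 (SE 0.102), lay 52.2 kb from Arl4c. In each of these 10 bins, which were chosen for their large differences, the genotypes stood apart without overlap. The largest loop rises were 3 loops at Fam240a, led by one with 43.6, 32.6, 183 and 208 scaled contacts (2.38, SE 0.184), 1 near Slc6a19 (2.10, SE 0.191) and 1 at Als2cl, beside Fam240a (2.04, SE 0.244).

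Some called bins lay in runs along the genome. Bins called the same way and starting no more than 5 kb apart were joined, a rule chosen after the values were seen, into 1851 stretches that were higher and 1903 that were lower. Most were single bins, 54.0% and 61.1%, while 61 and 41 held 10 or more called bins. The longest run of rises was the Prkcq stretch, with 59 bins over 67 kb. Next came Cd8b1 and Cd8a, the genes of the CD8 coreceptor, with 58 called bins over 77 kb (median 0.74). Mean coverage per called bin there was 1387, 1501, 2261 and 2405 reads. Nup214 and Fam78a had 30 bins (median 0.86), and Gimap9, Gimap4, Gimap7 and Gimap1, GTPases of lymphocyte survival, had 23 and 20 in a pair of stretches (medians 0.40 and 0.41). A stretch of 18 bins that ended 19.1 kb before Il6st had a median of 1.06.

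Runs of lower bins were shorter, up to 30 bins, at Tbx21 and Tbkbp1 (median -0.48, 1980, 1939, 1408 and 1395 reads per called bin). A stretch of 27 bins in no protein-coding gene, chr5:53392001-53431000, 113 kb from Smim20, had a median of -1.14. It had 3133, 4164, 1658 and 1702 reads per called bin. Dusp2, a phosphatase of MAP kinases, and Astl had 27 bins (median -0.77), and Cish and Hemk1 had 24 (-0.50). The Cish stretch had 2747 and 4170 reads per called bin in WT control and IL-2 and 2301 and 2536 in the Intron libraries, so the WT libraries differed between treatments by more than the Intron libraries did. Ltb, Tnf and Lta shared a stretch of 21 called bins (-0.39), Junb lay in one of 20 (-0.47) and Satb1 in one of 19 (-0.43). The medians of all stretches cover called bins only. Inside these last stretches 9, 4 and 5 other shared bins, in that order, were uncalled or higher. The end bins of Junb were not called, with 14326, 15392, 15458 and 16032 summed reads (0.08). Those of Tnf were not called (-0.20), and those of Ltb were called in both directions (0.05). At Tbx21 and Junb the end contacts did not pass the test although the coverage runs there were called.

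**Figure D5:**
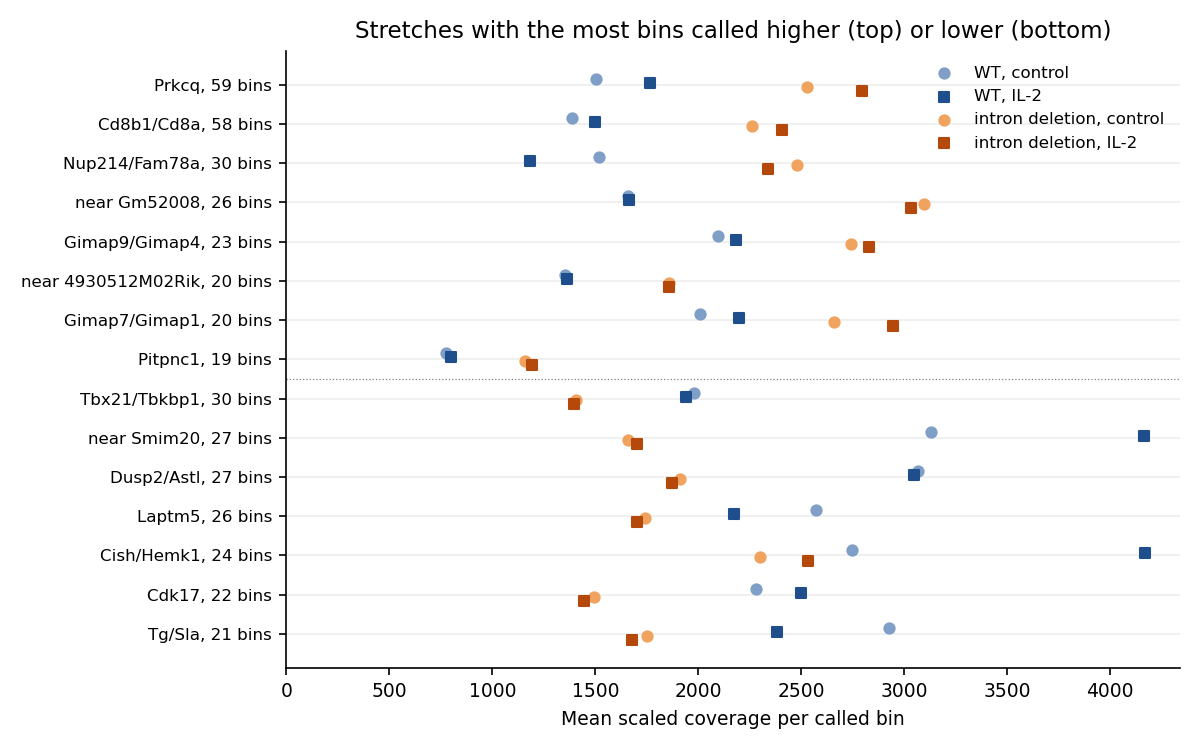
Mean scaled coverage per called bin in the 4 libraries for the 8 stretches with the most bins called higher (top) and 7 of the 8 with the most called lower (bottom), with the number of called bins. The stretches were joined from bins that were called, so their separation is a description.

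Of the 32179 shared loops 3060 (9.51%) were called, 1685 higher (5.24%) and 1375 lower (4.27%). Of those called, 3043 had the same sign under both treatments, which the test favours, as had 64.6% of all loops. Called loops usually had a called anchor. Of the higher loops 97.9% had one or both anchors called higher, and 75.8% had both, against 36.1% and 11.3% of all loops. For the lower loops these shares were 93.5% and 58.5%, against 28.9% and 7.83%. Contacts and coverage come from the same libraries, so they are not independent measures. Loops between gene ends were called least often, in 1.29% higher and 2.87% lower of 1395, and loops between bins outside genes were called in 7.41% and 5.99% of 5044. By span, 4.51% of the 2085 loops of 51 to 100 kb were called higher and 1.29% lower. The 14027 loops of 5 to 10 kb had 6.12% and 5.03%, and the 738 loops over 100 kb had 7.72% and 4.61%. Mean counts were 39.8 at 51 to 100 kb and over 100 kb, against 53.2 at 5 to 10 kb. Tested loops with the lowest mean counts had a median above 0, as given above. The part of the counts in the shares by span was not tested. DESeq2 called 45 loops, all among the 3060, and 668, 333 and 1716 were called without Intron control, Intron IL-2 and WT IL-2.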

How the data were processed

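Contacts per pair of 1 kb bins and coverage per bin are whole-number counts, as the authors deposited them in loop tables on mm10 (GRCm38). CASAVA, Bowtie2 2.2.6 and HiC-Pro are named in the submitters' processing notes, while the loop caller's settings are not stated in the labels. The tables have no header, and coverage was read from the column order of the FitHiChIP layout, in which each bin holds 1 value per library. Deposited pairs held 20 or more contacts, which removes weaker pairs from a shallow library first.

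Loops and bins listed in all 4 libraries were fitted in edgeR 4.0.16 (R 4.3.3) by the quasi-likelihood test with TMM scaling and treatment and genotype as terms, at a Benjamini-Hochberg adjusted p of 0.05. The SE is the log2 difference divided by the root of the F statistic. For gene ends, contacts were summed over the shared loops that touch a bin holding either annotated end (RefSeq, GRCm38.p6). Counting intervals are exact at 95%.

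The members and gene lists were chosen with earlier results of these data known. Named are Il2ra, measured genes within 1 Mb, up to 10 largest rises and falls at gene ends, list members that passed with up to 4 others per list, and up to 5 rises and 5 falls of bins and loops. Of 81 named genes 60 matched the promoter table.

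Alternatives were RLE, total-count and cyclic loess (limma 3.58.1) scaling, DESeq2 1.42.0, mean-count minimums of 40 (loops), 500 (bins) and 100 (gene ends), no treatment term, all 6 HiChIP libraries, and each library left out. In simulated counts a log2 change of 1 was recovered in 63% of changed loops, 100% of bins and 94% of gene ends. A change of 0.5 was recovered in 5%, 80% and 52%, with 5, 13 and 5 false calls. The simulation gave all features of a set the same dispersion, taken from the main fit. It had no IL-2 change, and 100 features changed at each size. Its false calls are thus no error rate for the calls reported here. The upstream-deletion libraries and the ChIP-seq samples were left out of the comparison, and the bias columns were not used. A few named genes and 1 stretch are not reported here.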

Additional observations from a re-analysis of the deposited data

Results flagged for a closer look

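For 10 named genes the log2 difference of Intron over WT contacts at the gene ends had opposite signs in the control and the IL-2 libraries. Opposite signs were common, since only 65.6% of all gene-end features had the same sign under both treatments. For most of the 10 genes a value under 1 treatment lay close to 0. Each value rests on 1 library per genotype, the difference between treatments was not tested, and none of the 10 passed the test across treatments. In 7 of them the control value was above 0 and the IL-2 value below it. Slc7a5, an amino acid transporter, was at 0.27 in control and -0.91 with IL-2. Cdk6, a kinase of the cell cycle, was at 0.12 and -0.56, and Batf, a partner of AP-1 and Irf4, at 0.2 and -0.52. Irf8 was at 0.015 and -0.4, Tnf at 0.032 and -0.37, and Runx3 at 0.0023 and -0.18. Actb, a housekeeping gene, was at 0.22 and -0.0043. The signs were the other way round for Cdkn1b, an inhibitor of the cell cycle, at -0.048 and 0.31, for Cd69, an early activation marker, at -0.015 and 0.28, and for Igtp, an interferon-induced GTPase, at -0.026 and 0.28.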

How the results depend on the processing

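DESeq2 called 45 loops, 4989 bins and 28 gene ends, against 3060, 8423 and 326. Without the treatment term 1911 loops and 5593 bins were called, and cyclic loess scaling left 98 gene ends. Leaving out 1 library at a time, with no treatment term, gave 333 to 3392 loops, 234 to 12096 bins and 48 to 498 gene ends, with the lowest count in each case without Intron IL-2. Without Intron control they were 668, 424 and 83, and 1716 loops were called without WT IL-2. These fits change the library and the treatment term together, and with 1 Intron library left the error is the IL-2 change of WT, so the low counts cannot be put down to the Intron libraries as such. The causes were not tested. The other scalings, the filters and the fit of all 6 libraries stayed within 1.5 times of these counts. All 39 named genes that passed kept their direction in every alternative fitted. Contacts of the Il2ra start bin, Intron over WT, were 0.126 in control and 0.165 with IL-2 for all listed pairs. They were 0.541 and 0.448 over pairs listed in both libraries, 0.765 and 0.483 with unlisted pairs set to 19 contacts, 0.189 and 0.200 when scaled by listed totals, and 0.510 and 0.425 for coverage of the bin. The size of this fall thus depends on how unlisted pairs are counted, and all values lie below 1. No paired analysis was possible because the labels give these libraries no replicate numbers and each group holds 1 library. The deposited tables carry the number 2 in their names, and no other replicate was analysed here. Treatment was a term in the main comparison. Values within each treatment carry no test and give no count of calls.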

Other observations

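The series also holds HiChIP libraries of cells with a second deletion, labelled Upstream, which share the WT controls with the comparison above and were not tested here. Scaled over all 6 libraries, the Apobec3 bin with the largest fall had 4508 and 3506 reads in Upstream control and IL-2, beside 5369 and 4356 in WT and 268 and 262 in Intron. Contacts at the Apobec3 ends were 221 and 178 in Upstream, 238 and 232 in WT and 30.2 and 31.5 in Intron. The Upstream values lay near WT at this gene. The bin near Ly6e at chr15:74934001-74935000 had 5391 and 5137 reads in Upstream, 5574 and 5429 in WT and 1290 and 1224 in Intron.

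Bins with the largest rises had Upstream values between the other genotypes. The bin near Pdzd8 had 493 and 497 reads in Upstream, 92.8 and 97.7 in WT and 1106 and 1161 in Intron. The middle Kat2b bin had 925 and 742 reads in Upstream, 450 and 381 in WT and 2259 and 2232 in Intron. Contacts at the Fam240a ends were 164 and 113 in Upstream, 107 and 78.6 in WT and 379 and 405 in Intron. These bins were chosen for their difference between Intron and WT, and the values are given as a description.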
